A study of Rattus norvegicus with 241 samples.

Results

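CD45+ leukocytes sorted from the mammary glands of adult virgin ACI rats were compared between 3 TGFBRi-treated and 4 vehicle rats, chosen from the sample labels by strain, age, sort, parity and treatment. These 7 bulk RNA-seq samples were part of 241 in the series and of 13 CD45+ samples of adult ACI rats. TGFBRi is LY2157299 (galunisertib), a small-molecule inhibitor of the kinase of the type I TGFβ receptor. Rats of this inbred strain, between 18 and 24 weeks old, were gavaged with 75 mg/kg of the inhibitor or with vehicle, 2 doses per day for 10 days, and their glands were collected at day 0, once dosing had ended. The other adult rats were parous and were dosed in the same way, with 4 TGFBRi-treated and 2 vehicle animals. The question was whether a short TGFβ blockade changes the leukocytes of a mature gland. Each library came from less than 10 ng of RNA of 1 animal. The rats are named by the codes on the labels (N1N, N1R, N2N and N2R), which recur in both treatment groups.

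TGFβ is secreted in a latent form, held by latent TGFβ binding proteins or, on regulatory T cells, by the docking receptor LRRC32, and is set free locally. The type II receptor binds the ligand and activates the type I receptor kinase, which phosphorylates SMAD2 and SMAD3, while SMAD7 is induced as a feedback inhibitor. In leukocytes this pathway is known for sustaining regulatory T cells, for restraining cytotoxic T and NK cells and for holding tissue-resident cells in epithelia.

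The values are normalized counts, that is reads per gene divided by a size factor of the library. Reads on genes ran from 25460524 to 35423867 in the vehicle and from 21591260 to 26504583 in the TGFBRi-treated libraries. The pan-leukocyte gene PTPRC, which encodes CD45, had 489 to 1016 CPM (gene counts scaled to a common total of reads on genes) in the vehicle and 726 to 930 CPM in the TGFBRi-treated CD45+ libraries, against at most 25.7 CPM in basal and 7.71 CPM in luminal sorts of adult virgin rats. CORO1A, LAPTM5 and CD53 were likewise at 281 CPM or more in every CD45+ library and at 115 CPM or less in every epithelial one, whereas CD52, a leukocyte surface marker, was at 0 to 4.75 CPM in CD45+ cells. Markers of T cells (CD3E) and macrophages (CSF1R) were present, with CSF1R between 83.2 and 1454 CPM across the 7 rats.

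The libraries of 2 rats stood apart. In the TGFBRi-treated rat N1R, 895 genes were at 0 that were above 0 in all 6 other virgin rats, against 11 to 95 such genes for each of the others, and 10962 genes were detected against 12120 to 12893. Its profile had a Pearson r of 0.790 to 0.863 with the other virgin libraries, which had 0.870 to 0.935 among themselves over 13618 genes, and 40.35% of its reads fell on no gene against 30.73 to 37.53%. In the vehicle rat N1N, transcripts of epithelium were most abundant, with a summed 21601 CPM of luminal markers against 2663 to 4778 CPM in the other vehicle rats and 1919 CPM of basal markers against 628 to 707 CPM. For many genes and lists, values without one or both of these rats are given as well.

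Of 13618 genes tested, 3 fell in TGFBRi-treated virgin rats (limma, Benjamini-Hochberg adjusted p of 0.05 or less) and 0 were called higher, which is 0.0220% lower and 0% higher. On reads recovered from these values, edgeR called 0 genes, although 739 had an unadjusted p below 0.05, and DESeq2 called 62 lower and 5 higher genes, the same 3 among them. Below, called means called by limma unless another test is named. All 3 (MAB21L1, TMEM67 and PRKAA2) had reads in every vehicle rat and none in any TGFBRi-treated virgin rat. At an unadjusted p below 0.05 there were 620 lower genes (4.55%) and 129 higher genes (0.947%), and the groups did not overlap for 328 lower genes (2.41%) and 169 higher genes (1.24%). Without the TGFBRi-treated rat N1R, 1147 lower and 1045 higher genes did not overlap, so that the excess of lower genes was mostly gone. Without N1R and the vehicle rat N1N, 1418 lower and 1345 higher genes did not. Full separation arises by chance more readily with fewer rats, so the rise of these counts cannot by itself show more change. The counts with rats left out were not set against the chance for fewer rats. With all rats the chance of full separation in either direction is 0.0571, the smallest two-sided p of an exact permutation test. The shares of 2.41% and 1.24%, each for a single direction, did not exceed that chance, which covers both directions together. The median log2 fold change of all genes was −0.13, and 62 genes were at 0 in all 3 TGFBRi-treated and above 0 in all 4 vehicle rats, while 1 gene showed the reverse. The treated group includes N1R, in which 895 genes were at 0 that were above 0 in the 6 other virgin rats. The reverse also needs 0 in 4 rats rather than in 3, so the 2 counts are not on equal terms.

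**Figure D1:**
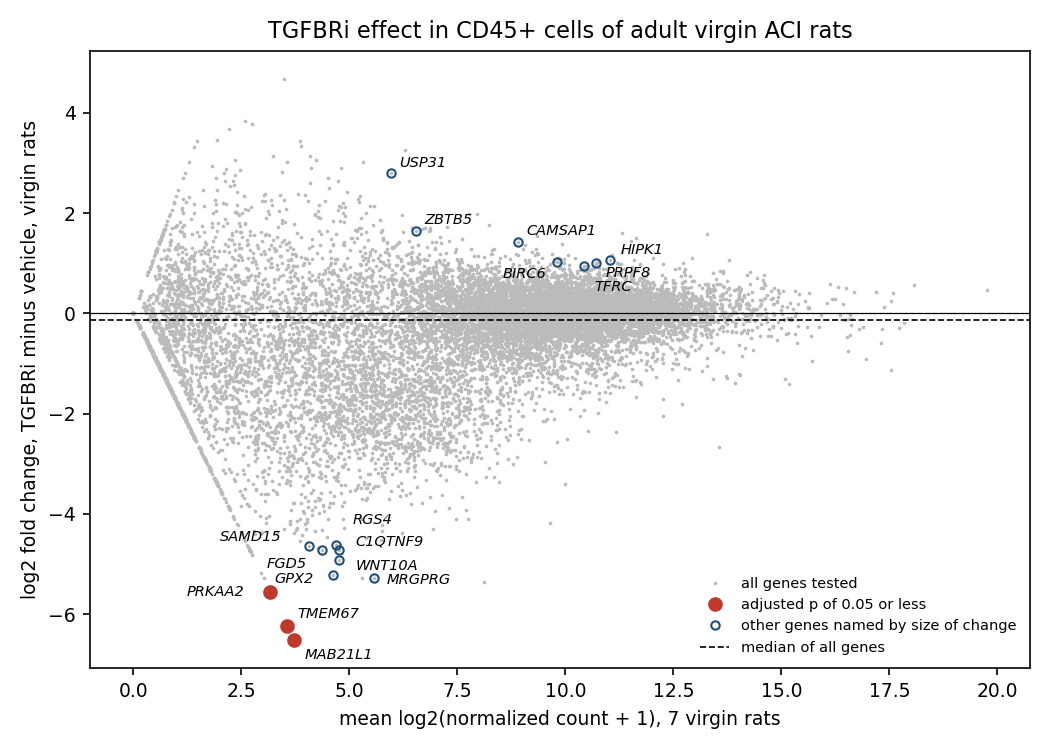
Log2 fold change of each gene between TGFBRi-treated and vehicle virgin rats (vertical axis) against its mean log2(normalized count + 1) over the 7 rats (horizontal axis). Red points are the 3 called genes, open circles the other genes named by size of change, and the dashed line the median of all genes at −0.13. The cloud reaches further down than up among genes of low to middle level.

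MAB21L1 encodes a member of the Mab-21 protein family that is needed for eye and craniofacial development. It had 272, 53.2, 56.7 and 80.3 normalized counts in the vehicle rats N1N, N1R, N2N and N2R, and 0 in the TGFBRi-treated rats N1N, N1R and N2R. The groups were fully apart, with a log2 change of −6.51 (standard error 0.80, adjusted p = 0.0264) on the log2(value + 1) scale. Since no read was counted in the treated rats, this log2 change depends on the added 1, and only a lower bound of the fold can be given. Over the pooled libraries MAB21L1 went from 4.34 CPM to at most 0.043 CPM, the level of 3 counts over the treated group.

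TMEM67, which encodes meckelin, a membrane protein of the primary cilium, had 228, 51.9, 17.4 and 145 normalized counts in the vehicle rats and 0 in the treated rats. Its level was at least 98.4-fold lower (log2 fold change −6.24, standard error 0.84, adjusted p = 0.0372). The vehicle values of TMEM67 spread widely, with N2N lowest and N1N highest. PRKAA2, the alpha-2 catalytic subunit of the energy sensor AMPK, had 147, 22.1, 31.6 and 42.5 normalized counts in the vehicle rats and 0 in the treated rats, at least 52.3-fold lower (log2 fold change −5.55, standard error 0.79, adjusted p = 0.042). Without the vehicle rat N1N the bounds were at least 57.9-fold for MAB21L1, 66.2-fold for TMEM67 and 28.6-fold for PRKAA2.

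These genes were low in the CD45+ sort. In vehicle virgin rats MAB21L1 had a median of 2.74 CPM in CD45+, 9.02 CPM in basal and 0.208 CPM in luminal cells. TMEM67 had medians of 3.97, 11.2 and 6.37 CPM, and PRKAA2 of 1.38, 1.14 and 11.4 CPM, in the same order. Each of them was thus higher in an epithelial sort than in CD45+ cells. In the basal sort, PRKAA2 was at 0 in all 4 TGFBRi-treated virgin rats, against 0.353 to 3.03 CPM with vehicle. MAB21L1 and TMEM67 stayed above 0 in all 4, with lowest values of 3.73 and 5.19 CPM. In the luminal sort, PRKAA2 had medians of 11.4 CPM with vehicle and 14.1 CPM with TGFBRi. The part of epithelial RNA in the CD45+ changes of the 3 genes was not tested. Without the TGFBRi-treated rat N1R the log2 fold changes were the same, with adjusted p values of 0.0723 (MAB21L1), 0.0958 (TMEM67) and 0.0958 (PRKAA2), and without the vehicle rat N1N they were −5.98, −5.71 and −5.0, with adjusted p values of 0.0797, 0.0839 and 0.0839. The treated rats stayed at 0 in either case, but none of the 3 calls was kept by limma. DESeq2 without N1R called all 3. Leaving out each of the 13 rats in turn gave between 0 and 33 called genes.

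In parous rats, MAB21L1 had 44.5 and 12.9 normalized counts with vehicle and 40.6, 70.8, 46.5 and 23.6 with TGFBRi. TMEM67 had 52.2 and 39.7 with vehicle and 50.6, 54.7, 65 and 62 with TGFBRi. All 4 treated parous rats therefore expressed both genes at levels seen in controls. PRKAA2 had 51.1 and 38.7 with vehicle and 9.12, 11.7, 27.9 and 13.1 with TGFBRi, lower in all 4 treated parous rats but above 0. The difference of effect between virgin and parous rats was −7.29 for MAB21L1 (standard error 1.20, adjusted p = 0.585), −6.58 for TMEM67 (standard error 1.27, adjusted p = 0.91) and −3.96 for PRKAA2 (standard error 1.19, adjusted p = 0.991), all log2. None of these differences passed the limma test over all genes, while DESeq2 called those of MAB21L1 and TMEM67.

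**Figure D2:**
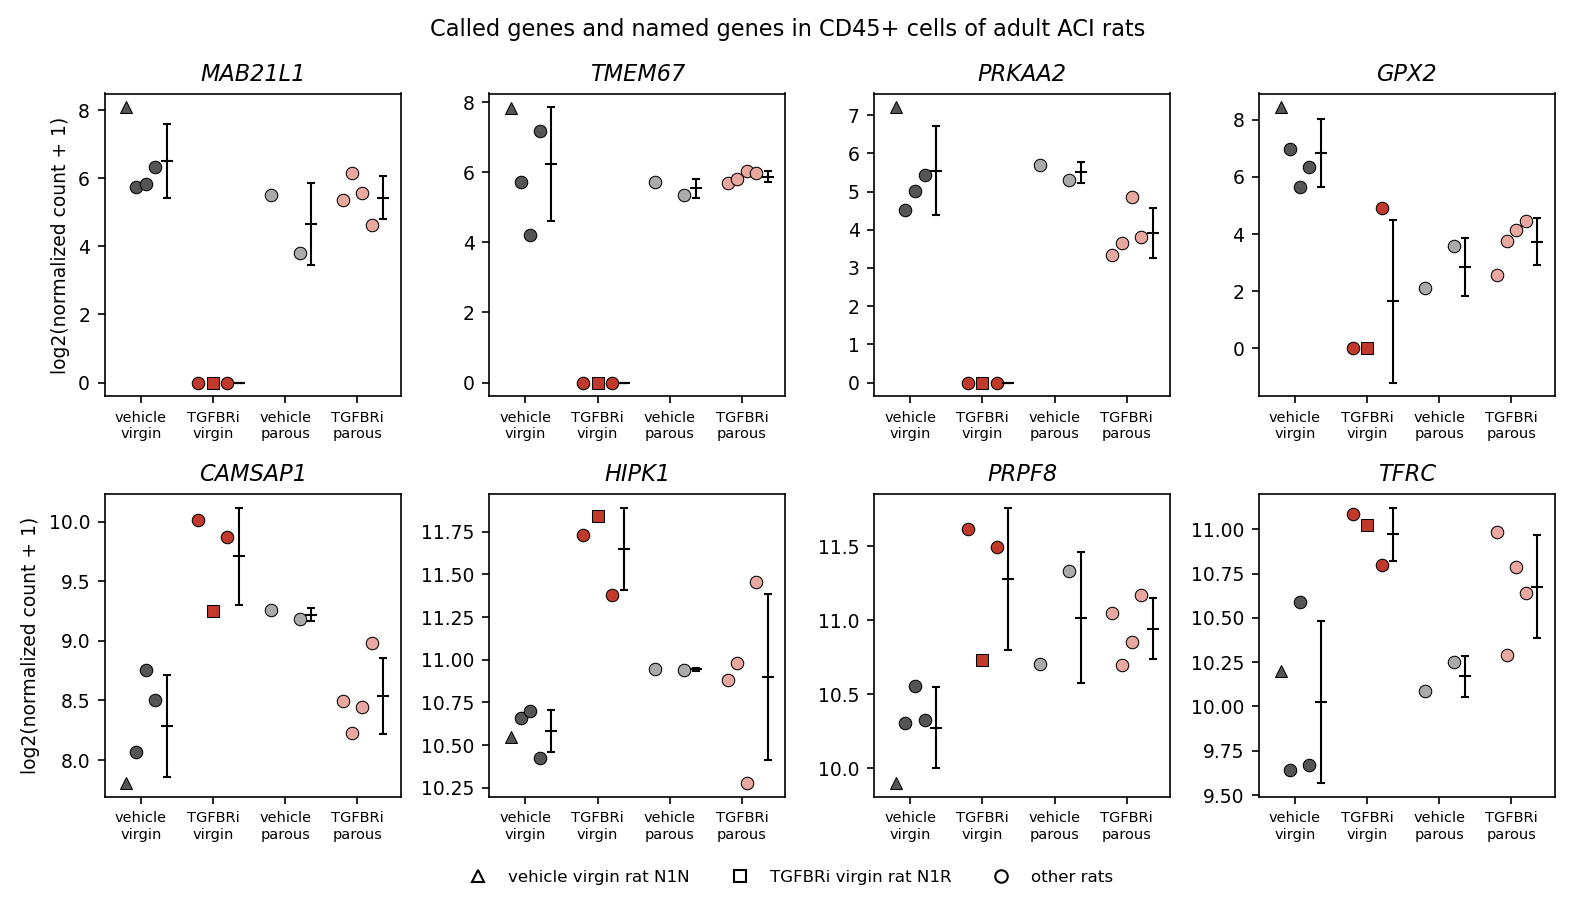
Log2(normalized count + 1) of 8 genes in each adult ACI rat, by treatment and parity, with the mean and SD of each group beside its points and a scale of its own in each panel. The 3 called genes are at 0 in every TGFBRi-treated virgin rat and above 0 in every other group, and the 4 genes of the lower row lie higher in all 3 TGFBRi-treated than in all 4 vehicle virgin rats.

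In all, 50 genes had an unadjusted p below 0.01, groups that did not overlap and a mean of at least 50 reads, of which 43 were lower and 7 higher with TGFBRi. The called genes MAB21L1 and TMEM67 were the 2 of the 43 that were at 0 in all 3 treated rats. None of those described next passed the adjusted threshold. GPX2, a glutathione peroxidase of epithelia, had 347, 125, 49 and 80.3 normalized counts with vehicle and 0, 0 and 29.4 with TGFBRi (log2 fold change −5.21, adjusted p = 0.388, and −4.68 without the vehicle rat N1N). WNT10A, a secreted Wnt ligand, ran from 70.2 to 285 with vehicle and had 0, 0 and 57 with TGFBRi (log2 fold change −4.92, adjusted p = 0.635). C1QTNF9, a secreted factor of the C1q and TNF family known from fat tissue, had 690, 66.4, 42.5 and 71.1 with vehicle and 27, 1.57 and 0 with TGFBRi (log2 fold change −4.72, adjusted p = 0.501, and −3.84 without the vehicle rat N1N). In all of them the vehicle rat N1N was highest, and the TGFBRi-treated rat N1R, whose library stood apart, had at most 1.57.

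FGD5, a guanine nucleotide exchange factor found in endothelium, had 217, 34.2, 54.5 and 118 normalized counts with vehicle and 32.8, 0 and 0 with TGFBRi (log2 fold change −4.71, adjusted p = 0.501). RGS4, which shortens G protein signaling, had 432, 77.2, 34.9 and 88.6 with vehicle and 0, 1.57 and 26.7 with TGFBRi (log2 fold change −4.62, adjusted p = 0.424, and −3.93 without the vehicle rat N1N). For FGD5 and RGS4 too the vehicle rat N1N was highest and the treated rat N1R had at most 1.57. The orphan receptor gene MRGPRG had a log2 change of −5.27 (adjusted p = 0.388, and −4.61 without the vehicle rat N1N) and SAMD15 of −4.63 (adjusted p = 0.393). Like the called genes, several of these were more abundant in epithelial sorts of vehicle virgin rats. GPX2 had a median of 4.34 CPM in CD45+, 161 CPM in basal and 20.1 CPM in luminal cells, and WNT10A of 3.53, 201 and 1.46 CPM.

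This held for the lower genes as a set. The vehicle median was higher in basal or luminal than in CD45+ cells for 75.2% of the genes lower at an unadjusted p below 0.05 (462 of 614 with values in all sorts), for 47.6% of the higher ones (59 of 124) and for 57.8% of all genes (7722 of 13371). Of the 43 lower genes counted above, MAB21L1 and TMEM67 included, 33 were higher in an epithelial sort, and of the 7 higher genes 6 were. The part of epithelial RNA in these differences was not tested.

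The 7 higher genes had log2 fold changes between 0.95 and 2.80. CAMSAP1, which binds the minus ends of microtubules, had 223, 268, 432 and 362 normalized counts with vehicle and 1031, 607 and 937 with TGFBRi (log2 fold change 1.43, standard error 0.35, adjusted p = 0.443). The lowest treated rat was N1R, and without it the change was 1.66 (unadjusted p = 3.2e-04). HIPK1, a nuclear serine/threonine kinase, had 1495, 1614, 1660 and 1371 with vehicle and 3399, 3666 and 2667 with TGFBRi (log2 fold change 1.07, standard error 0.29, adjusted p = 0.556). The vehicle values of HIPK1 lay close together and every treated rat was above them.

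PRPF8, the core protein of the spliceosome, had 954, 1265, 1506 and 1283 normalized counts with vehicle and 3140, 1695 and 2878 with TGFBRi (log2 fold change 1.01, adjusted p = 0.69), although in CPM the groups overlapped. TFRC, the transferrin receptor through which cells take up iron, had 1176, 797, 1539 and 812 with vehicle and 2175, 2084 and 1783 with TGFBRi (log2 fold change 0.95, adjusted p = 0.73). BIRC6, a large ubiquitin ligase that inhibits apoptosis, had 727, 561, 614 and 749 with vehicle and 1498, 1865 and 874 with TGFBRi (log2 fold change 1.03, adjusted p = 0.739). The deubiquitinase gene USP31 (log2 fold change 2.80, adjusted p = 0.748) and ZBTB5, a zinc-finger transcription factor gene (log2 fold change 1.65, adjusted p = 0.765), completed the set, and in CPM the groups of USP31 overlapped as well. In parous rats the log2 fold changes of these 7 genes ran from −0.69 (USP31) to 0.51 (TFRC).

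Genes of the TGFβ pathway itself were next described by role. Of 20 ligands, activators and receptors listed, 19 were tested, 1 had a log2 fold change above 0, 3 were lower and 0 higher at an unadjusted p below 0.05 (4.55% and 0.947% of all genes), and 0 were called. The median of the list was −1.27, beside −0.13 for all genes. It was −0.15 without the TGFBRi-treated rat N1R and 0.22 without that rat and the vehicle rat N1N, so the low median rested on N1R.

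The ligand TGFB1 had 1321, 1587, 8203 and 6608 normalized counts with vehicle and 10353, 185 and 6302 with TGFBRi (log2 fold change −0.51, adjusted p = 0.977). Treated rats were both above and far below the vehicle range. The log2 fold changes of TGFB2 and TGFB3 were −1.11 (adjusted p = 0.889) and −1.0 (adjusted p = 0.889). The latent TGFβ binding protein gene LTBP2 was the member whose groups did not overlap in normalized counts (those of LTBP1 also did not in CPM), with 833, 317, 541 and 266 with vehicle and 134, 0 and 81 with TGFBRi (log2 fold change −4.31, unadjusted p = 0.0132, adjusted p = 0.779). Without N1R its change was −2.07 (unadjusted p = 0.0666). LTBP2 had a median of 16.5 CPM in CD45+ and 1266 CPM in basal cells of vehicle virgin rats, and LTBP4 of 39.4 and 711 CPM, while basal markers had a median log2 change of −1.46 in the same libraries. The part of basal RNA in these values was not tested. LTBP1 had a log2 change of −3.62 and LTBP4 of −1.54 (adjusted p = 0.889 for both), and without N1R −1.09 and −0.72.

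The receptors showed the same dependence. TGFBR1, which encodes the kinase that the inhibitor blocks, had 594, 381, 905 and 810 normalized counts with vehicle and 1681, 14.1 and 1366 with TGFBRi. The log2 fold change of TGFBR1 was −0.97 (adjusted p = 0.936) with all rats and 1.25 (unadjusted p = 0.00264) without N1R. TGFBR2, the type II receptor, had 2550, 1688, 1552 and 1561 with vehicle and 2222, 1.57 and 2151 with TGFBRi (log2 fold change −2.96, adjusted p = 0.889), and 0.28 (unadjusted p = 0.297) without N1R. The co-receptor TGFBR3 had a log2 change of −1.36 (adjusted p = 0.891) and of 0.36 without N1R. LRRC32, the docking receptor of latent TGFβ, had 4897, 384, 1071 and 672 with vehicle and 780, 1.57 and 1208 with TGFBRi (log2 fold change −3.01, adjusted p = 0.889), and −0.15 without N1R. For TGFBR1, TGFBR2, TGFBR3 and TGFB1 the sign of the change turned when this 1 library was left out.

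Of 18 SMAD and feedback genes, 16 were tested and 7 had a log2 fold change above 0, with a median of −0.14 (0.23 without N1R) and 0 called. SMAD3, the transcriptional mediator of the pathway, had 1246, 784, 1096 and 1378 normalized counts with vehicle and 1687, 1439 and 1897 with TGFBRi. All 3 treated rats were above all 4 vehicle rats, with a log2 change of 0.59 (unadjusted p = 0.0678, adjusted p = 0.889). In CPM the groups of SMAD3 overlapped, at 35 to 53.4 CPM with vehicle and 42.4 to 80.4 CPM with TGFBRi. SMAD7, the inhibitor induced by the pathway, had 1879, 1532, 4462 and 2673 with vehicle and 7550, 1457 and 5072 with TGFBRi (log2 fold change 0.66, adjusted p = 0.914), and 1.35 (unadjusted p = 0.0378) without N1R. SMAD1, which mediates BMP signals, and NEDD4L, a ubiquitin ligase that turns over activated SMADs, had log2 fold changes of −1.06 and −1.13 (adjusted p = 0.889 for both), and of −0.02 and −0.24 without N1R.

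Of 24 TGFβ target genes, 23 were tested, 10 had a log2 fold change above 0, 1 was lower at an unadjusted p below 0.05 (beside 4.55% of all genes) and 0 were called, with a median of −0.52 and of −0.04 without N1R. The lower one was CDKN2B, a cell cycle inhibitor induced by TGFβ, with 22.6, 21.5, 45.8 and 30.5 normalized counts with vehicle and 22.3, 0 and 7.12 with TGFBRi (log2 fold change −2.37, adjusted p = 0.889, and −1.11 without N1R). TGFBI, a secreted matrix protein, had a log2 change of 0.63 (adjusted p = 0.93), ITGAE, the integrin of tissue-resident lymphocytes, of 0.70 (adjusted p = 0.918), and TIMP1, an inhibitor of matrix metalloproteinases, of −1.47 (adjusted p = 0.889, and −0.75 without the vehicle rat N1N). The collagen gene COL1A1 had 12929, 8341, 9024 and 7015 with vehicle and 1632, 262 and 24879 with TGFBRi, so that treated rats lay on both sides of the vehicle range. No target gene had groups that were apart in normalized counts, whereas CDKN2B did in CPM.

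**Figure D3:**
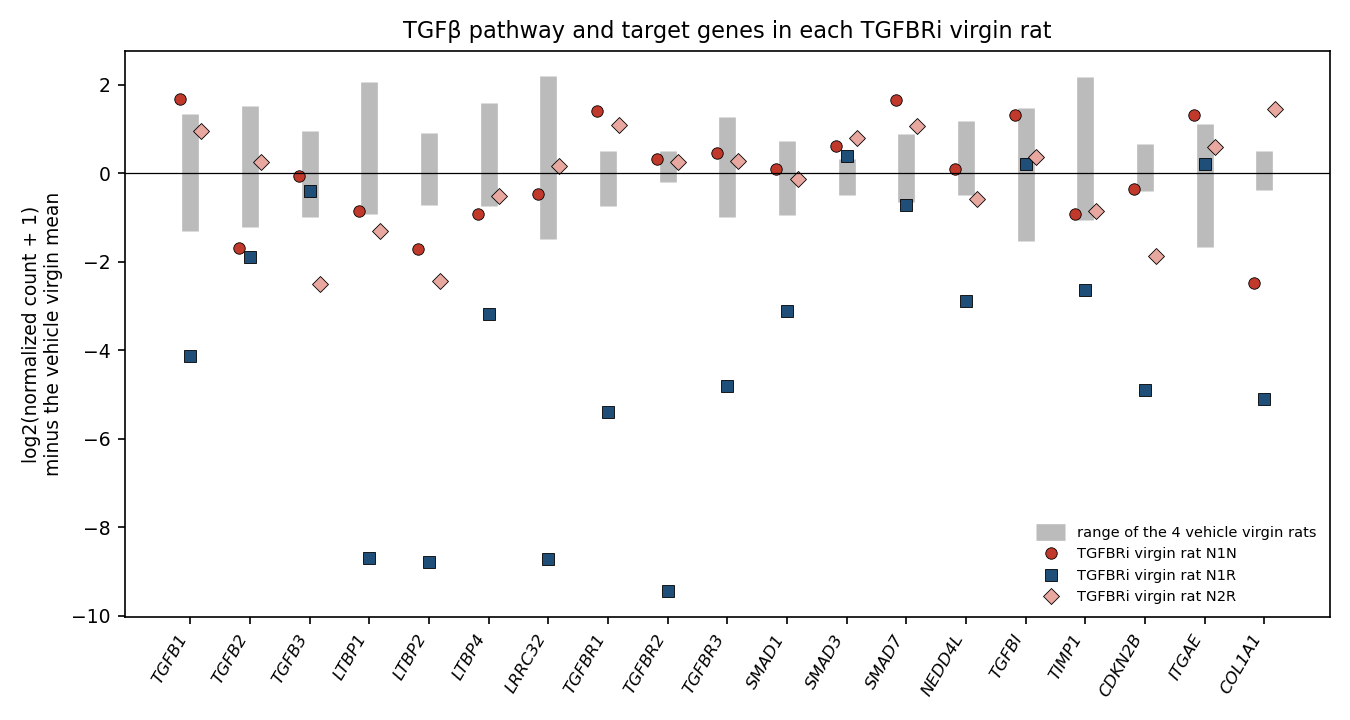
TGFβ pathway and target genes in each of the 3 TGFBRi-treated virgin rats, as log2(normalized count + 1) minus the mean of the 4 vehicle virgin rats, whose range is the grey bar. The library of rat N1R (squares) lies far below the bar for TGFBR1 (14.1 normalized counts), TGFBR2 (1.57) and LTBP2 (0), while rats N1N and N2R lie above the bar for TGFBR1 and below it for LTBP2.

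Leukocyte marker lists were compared next. In bulk RNA, fewer cells of a type and less RNA per cell cannot be told apart. No marker of any leukocyte type was called by limma. DESeq2 called at least MARCO, a macrophage scavenger receptor gene, lower. MARCO was at 0 in 2 of the 4 vehicle and in all 3 treated rats, with up to 20 CPM with vehicle. Markers of monocytes and macrophages summed to 7513, 6476, 28939 and 27862 CPM in the vehicle rats N1N, N1R, N2N and N2R and to 18566, 14137 and 10542 CPM in the TGFBRi-treated rats N1N, N1R and N2R. The vehicle rats thus fell into a low and a high pair, with every treated rat between them. This sum was not specific to leukocytes. In vehicle virgin rats it had a median of 17688 CPM in CD45+ and 29326 CPM in basal cells. APOE alone had medians of 6683 and 29044 CPM there. The median log2 fold change of this list was 0.26, with 16 of 19 tested genes above 0, but −0.31 without the vehicle rat N1N.

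T and NK cell lists had medians above that of all genes. For T cells, 16 of 18 tested genes had a log2 fold change above 0 (median 0.34), and for cytotoxic and NK cells 14 of 18 (median 0.67). The T cell markers summed to 930, 3428, 1839 and 1904 CPM with vehicle and to 2330, 3558 and 1942 CPM with TGFBRi. The vehicle rat N1N, which had the most epithelial RNA, was lowest for both lists, and without N1N and N1R the medians were −0.11 and 0.08. ZAP70, the kinase of the T cell receptor, had 861, 2541, 2561 and 1931 normalized counts with vehicle and 3749, 5933 and 2066 with TGFBRi (log2 fold change 0.98, unadjusted p = 0.043, adjusted p = 0.889), and 0.62 without the vehicle rat N1N. The granzyme genes GZMA and GZMK of killer cells had log2 fold changes of 1.51 and 0.79 (adjusted p = 0.889 for both), and of 0.90 and 0.52 without the vehicle rat N1N.

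Of 14 regulatory and checkpoint T cell genes, 12 were tested and 11 had a log2 fold change above 0, with a median of 0.62 (0.83 without N1R, 0.51 without N1R and the vehicle rat N1N). IL2RA, the interleukin-2 receptor chain that marks regulatory and activated T cells, had 840, 3016, 2535 and 2561 normalized counts with vehicle and 4554, 3249 and 3547 with TGFBRi. All treated rats were above all vehicle rats, with a log2 change of 0.89 (unadjusted p = 0.0733, adjusted p = 0.889), and of 0.47 without the vehicle rat N1N. In CPM the groups of IL2RA overlapped, at 33.5 to 135 CPM with vehicle and 95.8 to 179 CPM with TGFBRi. B cell markers had a median of 0.04 and ranged from 311 to 3389 CPM with vehicle and from 334 to 1870 CPM with TGFBRi. Leaving out 1 rat moved the B cell median anywhere from −0.98 to 0.99, so no direction could be given.

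Neutrophil markers had the lowest median of the leukocyte lists, −1.13 with 5 of 17 tested genes above 0 (−0.75 without N1R and −1.95 without the vehicle rat N1N). At an unadjusted p below 0.05, 3 were lower and 1 higher, beside 4.55% and 0.947% of all genes. S100A8, a calprotectin subunit, had 202, 338, 2341 and 2826 normalized counts with vehicle and 176, 247 and 118 with TGFBRi. The vehicle rats N2N and N2R were far above the other 5 rats and the groups overlapped, with a log2 change of −2.24 (unadjusted p = 0.0205, adjusted p = 0.851). In CPM the groups were apart, at 8.05 to 110 CPM with vehicle and 5.02 to 7.27 CPM with TGFBRi. CAMP, which encodes the antimicrobial cathelicidin and was named after its values were seen, had 11.8, 12.7, 135 and 29.5 with vehicle and 0, 0 and 1.78 with TGFBRi (log2 fold change −4.38, adjusted p = 0.343). RETNLG, a resistin-like protein of neutrophils, had a log2 change of −1.55 (adjusted p = 0.889). The listed gene IL1R2 lay the other way, with a median of 148 CPM with vehicle and 207 CPM with TGFBRi. Its ranges overlapped, at 49.4 to 280 and 159 to 225 CPM. The neutrophil sum was 134, 219, 1007 and 1138 CPM with vehicle and 278, 495 and 339 CPM with TGFBRi, so again the treated rats lay between a low and a high pair of vehicle rats.

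Dendritic cell markers had a median of 0.14 (0.36 without N1R) and tissue macrophage scavenger genes of 0.04 (−0.19 without the vehicle rat N1N). FLT3, the growth factor receptor of dendritic cell precursors, had a log2 change of 0.91 (adjusted p = 0.939, and 0.06 without the vehicle rat N1N), and the macrophage lectins MRC1 and CLEC10A of 1.60 and 1.11 (adjusted p = 0.889 and 0.891). Of the scavenger genes, 9 of 17 had a log2 fold change above 0. GAS6 and CD36 lay the other way, with medians of 365 and 70.6 CPM with vehicle and 121 and 27 CPM with TGFBRi. GAS6 was more abundant in epithelial sorts of vehicle virgin rats, with medians of 2733 CPM in basal and 2057 CPM in luminal cells. The scavenger list summed to medians of 5330, 3527 and 4813 CPM in CD45+, basal and luminal cells of these rats, so it was not specific to leukocytes. For plasma cells, mast cells, and eosinophils and basophils the medians were −0.01, −0.47 and 0.04, and leaving out 1 rat gave either sign in all of them. In vehicle virgin rats plasma cell markers summed to medians of 712, 3051 and 2483 CPM in CD45+, basal and luminal cells. Mast cell markers summed to 97.9, 17.8 and 197 CPM, so neither sum was specific to leukocytes. The MHC class II genes of antigen-presenting cells had a median of 0.19 (−0.02 without the vehicle rat N1N), and the class I genes of −0.17. None of these lists had a member whose groups were fully apart.

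**Figure D4:**
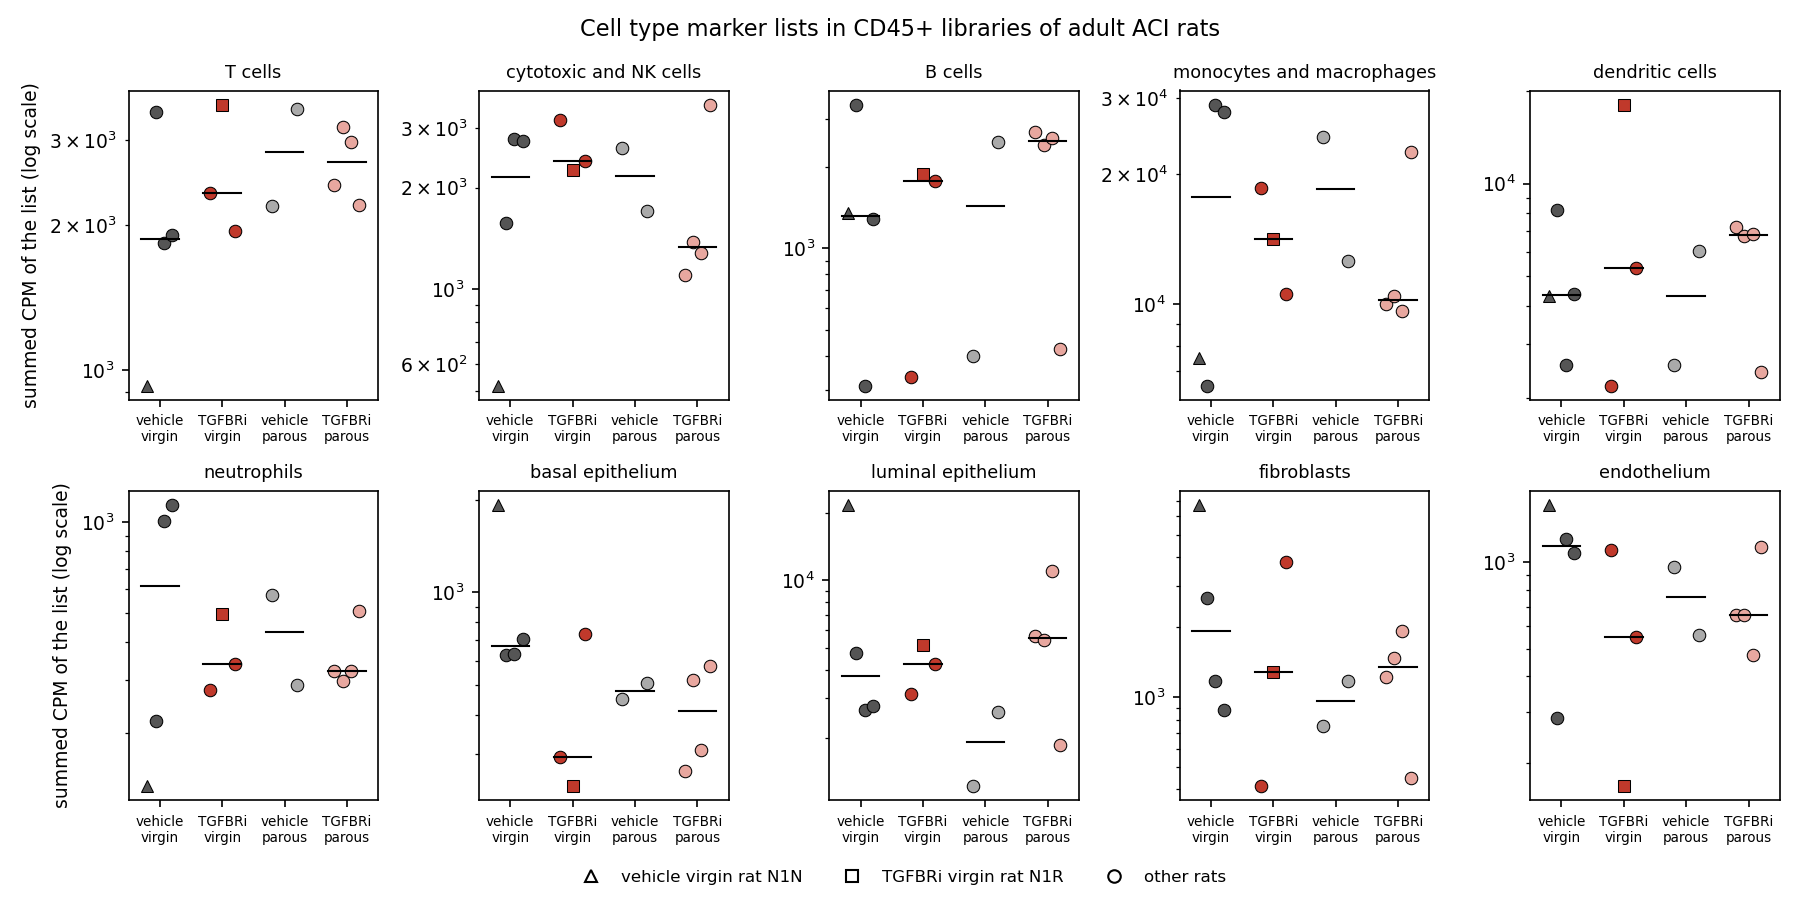
Summed CPM of marker lists in each CD45+ library of adult ACI rats (log scale), by treatment and parity, with the group median as a line. Macrophage and neutrophil markers split the vehicle virgin rats into a low and a high pair with the TGFBRi-treated virgin rats between them, and the vehicle rat N1N (triangle) is highest for epithelial markers and, among virgin rats, lowest for T cell markers at 930 CPM.

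Signaling and response genes gave few separations. Of 30 CC and CXC chemokines, 12 had a log2 fold change above 0 and the median was −0.37 (−0.11 without the vehicle rat N1N). CCL21, which draws dendritic and T cells to lymphatic vessels, had 12972, 1302, 923 and 909 normalized counts with vehicle and 145, 522 and 454 with TGFBRi. All treated rats were below all vehicle rats, with a log2 change of −2.57 (unadjusted p = 0.0126, adjusted p = 0.779), and of −1.66 (unadjusted p = 0.0233) without the vehicle rat N1N. CCL22, a chemokine of dendritic cells that attracts regulatory T cells, had a log2 change of 0.80 (adjusted p = 0.889). Chemokine receptors had a median of 0.48 (−0.04 without the vehicle rat N1N). Among them CCR9, the gut-homing receptor, named after its values were seen, had 24.6, 16.5, 22.9 and 0 with vehicle and 64.5, 77 and 56.1 with TGFBRi (log2 fold change 2.71, adjusted p = 0.889).

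Interleukins and other cytokines had a median of −0.31 and their receptors of −0.10, which turned to 0.52 without N1R and 0.23 without both rats. IL10, an anti-inflammatory cytokine, had 1795, 2500, 2593 and 2279 normalized counts with vehicle and 1434, 2192 and 1214 with TGFBRi (log2 fold change −0.54, adjusted p = 0.889). In CPM the groups of IL10 were apart, at 71.6 to 112 CPM with vehicle and 51.4 to 64.6 CPM with TGFBRi. Interferon-stimulated genes had 7 of 31 above 0 and a median of −0.34. IFIT1, an antiviral protein that binds foreign RNA, had 1342, 535, 1473 and 1040 with vehicle and 400, 577 and 481 with TGFBRi (log2 fold change −1.09, unadjusted p = 0.021, adjusted p = 0.86), and its groups too were apart in CPM. The NF-κB response genes had a median of −0.04 (0.16 without N1R), and TRAF1, an adaptor of TNF receptors, a log2 change of 0.82 (adjusted p = 0.889). In the interferon list, all 3 treated rats had IFIT1 below 3 of the 4 vehicle rats.

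Immediate early genes had 4 of 25 above 0 (median −0.26, and 0.09 without N1R). JUN, a transcription factor induced within minutes of stimulation, had 57992, 30416, 62068 and 64348 normalized counts with vehicle and 57145, 6592 and 24107 with TGFBRi (log2 fold change −1.30, adjusted p = 0.889), and JUND a log2 change of −1.13 (adjusted p = 0.889). Without N1R these were −0.47 and −0.38. Heat shock chaperones had 3 of 16 above 0 (median −0.23, and −0.57 without N1R), and HSPB1, a small heat shock protein, had 10464, 3316, 4457 and 4953 with vehicle and 1996, 1200 and 3222 with TGFBRi (log2 fold change −1.41, adjusted p = 0.889). Complement components had a median of −0.56, and of −0.31 without the vehicle rat N1N. Within that list C3, the central component, had a log2 change of 0.97 (adjusted p = 0.889), and CLU, an extracellular chaperone named after its values were seen, of −0.91 (adjusted p = 0.889) with groups that did not overlap in normalized counts but did in CPM.

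Of the cell cycle lists, S phase genes had 24 of 35 above 0 (median 0.24) and G2/M genes 22 of 42 (median 0.10), beside 5676 of 13618 of all genes (median −0.13). At an unadjusted p below 0.05, UNG, a DNA repair glycosylase (log2 fold change 0.78), TK1, thymidine kinase (1.19), MKI67, which encodes the proliferation marker Ki67 (1.29), and PLK1, a mitotic kinase (2.42), were higher, and NUF2, a kinetochore protein (−3.53), was lower. Without N1R the changes of UNG, MKI67, PLK1 and NUF2 were 0.44, 0.76, 1.17 and −1.96. MKI67 had 114, 92.4, 172 and 115 normalized counts with vehicle and 611 and 414 in the TGFBRi-treated rats N1R and N2R. The treated rat N1N was within the vehicle range, and none of these genes passed the adjusted threshold (adjusted p between 0.821 and 0.889).

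Markers of most cell types outside the CD45 gate had log2 fold changes below 0, though none was called. Basal epithelial markers had 1 of 15 above 0, a median of −1.46 and 4 members with groups that did not overlap (KRT17, ACTA2, TAGLN and MYLK, the last named after its values were seen), beside 2.41% of all genes. The cytokeratin KRT17 had 11970, 3024, 3862 and 3404 normalized counts with vehicle and 995, 332 and 2290 with TGFBRi (log2 fold change −2.36, unadjusted p = 0.00549, adjusted p = 0.679). The highest KRT17 value was that of the vehicle rat N1N and the lowest that of the treated rat N1R. Smooth muscle actin ACTA2, which myoepithelial cells also express, had 1122, 371, 398 and 498 with vehicle and 147, 22 and 330 with TGFBRi (log2 fold change −2.37, adjusted p = 0.762, and −1.28 without N1R), with groups that overlapped in CPM. TAGLN, an actin-binding protein, had a log2 change of −1.43 (adjusted p = 0.821), MYLK, the kinase of myosin light chains, of −0.94 (adjusted p = 0.889), and the basal cytokeratin KRT14 of −1.71 (adjusted p = 0.889, and −0.87 without N1R). Without N1R and the vehicle rat N1N the basal median was −0.54.

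Luminal markers had 3 of 18 above 0 and a median of −0.95 (−0.40 without the vehicle rat N1N). The luminal cytokeratin KRT8 had 67404, 8716, 10749 and 11310 normalized counts with vehicle and 8251, 5924 and 5812 with TGFBRi (log2 fold change −1.31, adjusted p = 0.889), and KRT19 a log2 change of −1.27 (adjusted p = 0.889) with groups apart. Without the vehicle rat N1N these were −0.63 and −0.66. The casein gene CSN2 went the other way, with 3359, 19599, 4676 and 4811 with vehicle and 3431, 36777 and 51232 with TGFBRi (log2 fold change 1.59, adjusted p = 0.889). The summed CPM of the luminal list was accordingly not lower, with a median of 3765 CPM with vehicle and 4245 CPM with TGFBRi, while the median log2 fold change of its genes was below 0.

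Smooth muscle and pericyte markers had 0 of 9 above 0 (median −1.84), endothelial markers 1 of 14 (median −1.54), fibroblast markers 1 of 14 (median −1.15) and skeletal muscle and nerve markers 0 of 10 (median −0.90). The muscle filament desmin (DES) had 944, 204, 161 and 230 normalized counts with vehicle and 96.2, 50.3 and 133 with TGFBRi (log2 fold change −1.74, adjusted p = 0.889). S100B, a calcium-binding protein of Schwann and fat cells, had 636 in the vehicle rat N1N, 154 in N2N and lower values, still above the treated rats, in the other two vehicle rats, and 46.9, 1.57 and 21.4 with TGFBRi (log2 fold change −3.70, unadjusted p = 0.00264, adjusted p = 0.528). The lowest S100B value was that of the treated rat N1R. CLDN5, a tight junction protein of endothelium, had a log2 change of −2.71 (adjusted p = 0.889) and FABP4, a fatty acid carrier of fat cells and capillaries, of −1.56 (adjusted p = 0.889), both with groups apart (−1.30 for CLDN5 without N1R and −0.71 for FABP4 without the vehicle rat N1N). Without N1R and the vehicle rat N1N the medians were −0.28, 0.22, −0.39 and −0.84, so that the endothelial sign turned. Adipocyte markers had a median of −0.00. The summed levels of these lists overlapped between the groups, with basal markers at 628 to 1919 CPM with vehicle and 236 to 731 CPM with TGFBRi. The part of non-leukocyte RNA in the other differences was not tested.

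**Figure D5:**
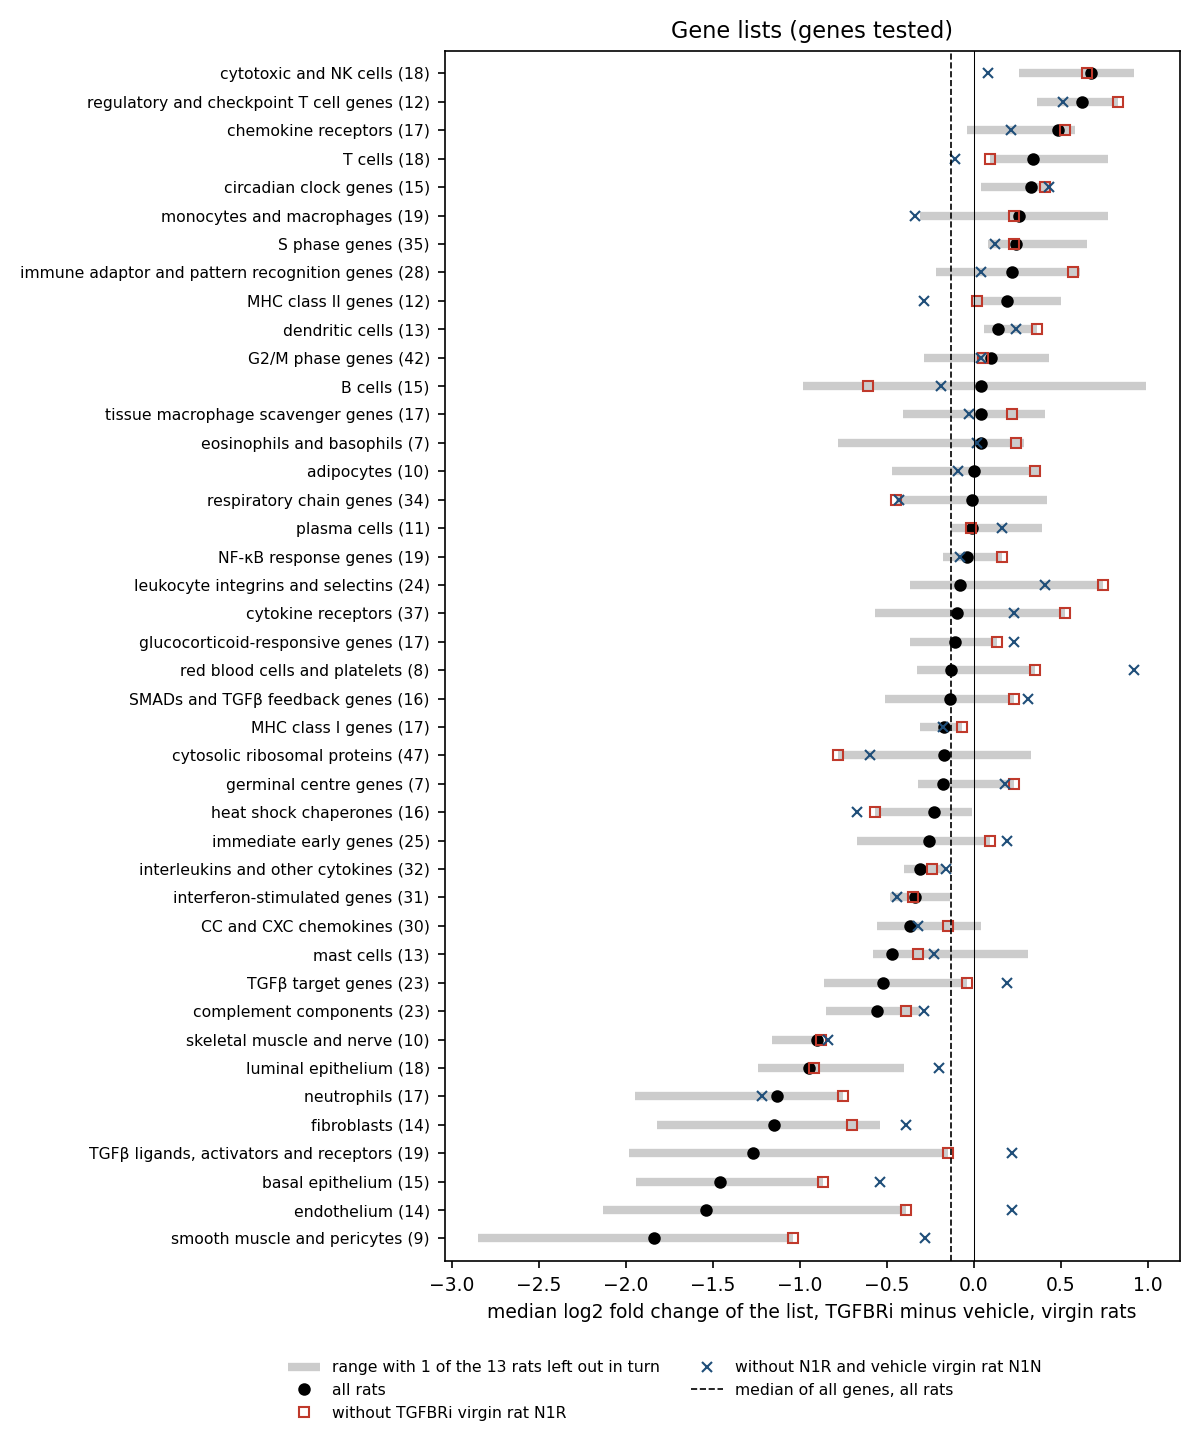
Median log2 fold change between TGFBRi-treated and vehicle virgin rats for 42 gene lists, with the number of genes tested in parentheses. The grey bars give the range over leaving out 1 rat in turn, and the dashed line is the median of all genes at −0.13. Smooth muscle and pericyte (−1.84), endothelial (−1.54), basal (−1.46) and TGFβ ligand, activator and receptor genes (−1.27) lie furthest to the left with all rats, and lie at −0.28, 0.22, −0.54 and 0.22 when the TGFBRi-treated rat N1R and the vehicle rat N1N are left out.

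The remaining lists had no called gene and moved with single rats. Cytosolic ribosomal protein genes had a median of −0.17 and respiratory chain genes of −0.01, and without N1R these were −0.78 and −0.45. Leukocyte integrins and selectins had a median of −0.08 and immune adaptor and pattern recognition genes of 0.22, and without N1R 0.74 and 0.57. The medians of circadian clock, glucocorticoid-responsive, germinal centre, and red blood cell and platelet genes were 0.33, −0.11, −0.18 and −0.13. Without N1R the last 3 turned to 0.13, 0.23 and 0.35, and without the vehicle rat N1N the first was 0.04. Of the 42 lists, 22 had a median that changed sign when 1 rat was left out and 20 kept it.

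The same contrast in parous rats called 0 of 13618 genes (0%), with 141 at an unadjusted p below 0.05 and a lowest adjusted p of 0.864. The difference of effect between virgin and parous rats called 0 genes (0%) by limma and by edgeR, whose unadjusted p was below 0.05 for 368 and 436 genes. DESeq2 called 6, MAB21L1 and TMEM67 among them. The median log2 fold change of basal markers was −0.38 and that of luminal markers 0.37 in parous rats, against −1.46 and −0.95 in virgin rats. Regulatory and checkpoint T cell genes had a median of −0.04 in parous rats and cytotoxic and NK genes of −0.18, against 0.62 and 0.67 in virgin rats. These values stand side by side, since the lists were not tested between parities.

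In CD45+ cells of young virgin ACI rats at day 0, which were normalized apart, limma called 297 of 14761 genes lower (2.01%) and 123 higher (0.833%) with 3 rats per group. KRT17 had 991, 3373 and 750 normalized counts with vehicle and 23.9, 46.7 and 33.1 with TGFBRi (log2 fold change −5.31, adjusted p = 1.2e-04), and 12 of 15 basal markers fell there. LTBP2 fell as well, from 307, 493 and 208 to 0 in all 3 treated young rats (adjusted p = 9.8e-07). In adult vehicle virgin rats LTBP2 had a median of 16.5 CPM in CD45+ and 1266 CPM in basal cells. Of the young rats' markers, 7 of 14 for fibroblasts and 5 of 9 for smooth muscle and pericytes were also called lower. The part of non-leukocyte RNA in the fall of LTBP2 was not tested. S100A8 had the opposite sign at the younger age, with 69.1, 165 and 160 with vehicle and 1659, 1494 and 6401 with TGFBRi (log2 fold change 4.35, adjusted p = 0.00473). The neutrophil list had a median of 1.80 in young and −1.13 in adult virgin rats. The genes called in adult rats were not called in young rats (adjusted p = 0.538 for MAB21L1, 0.644 for TMEM67 and 0.271 for PRKAA2), and no test between the ages was made.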

How the data were processed

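Bulk RNA-seq of CD45+ cells from adult ACI rats was analysed. Per the study's methods, the authors aligned reads to rn6 with STAR 2.5.1b, counted them without strand on the UCSC refGene annotation with HTSeq, kept genes with at least 10 counts and divided each sample by a DESeq2 1.30.1 size factor. The deposited values are this signal, normalized counts by gene symbol. Dividing by 1 step per sample returned whole reads for 100% of 785279 values above 0 (tolerance 0.001). Reads assigned to no gene (30.73 to 40.35% in virgin rats) stayed out of totals and tests.

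Groups were compared by limma 3.58.1 (trended prior, robust variances, two-sided) on log2(normalized count + 1), which understates changes of low genes, over genes summing to at least 10, with all 13 samples and 4 groups in 1 model and Benjamini-Hochberg adjustment. edgeR 4.0.16 and DESeq2 1.42.0 on the recovered reads were alternatives. The p-values rest on the spread between rats within groups, pooled over the 4 groups. The 3 called genes were at 0 in every TGFBRi-treated virgin rat, so for them that group adds no spread. An exact permutation test of 4 against 3 rats cannot go below p = 0.0571 and was not used. Fits were tested on simulated data. R 4.3.3 was used. Reads of genes on opposite strands that overlap cannot be told apart.

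Genes were named if called, if among the 10 largest changes per direction with an unadjusted p below 0.01, groups that did not overlap and a mean of at least 50 reads, or as members of 42 gene lists (up to 3 per direction, and TGFβ and sort markers). The members and lists were chosen with earlier results of these data known. Floors are 3 counts over a group and cover counting error only. Replicates were separate rats and differed beyond sampling noise. Correlations of deviations from the group mean were −0.080, 0.413 and 0.092 for rats sharing a code. For rats of different codes they ran from −0.496 to 0.409. With 3 shared codes, these values cannot decide whether the codes pair the samples. Leaving out the rats N1R and N1N together, and the count tests without N1R, were added after the data were seen. Some genes that met these rules are not reported here.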

Additional observations from a re-analysis of the deposited data

Results flagged for a closer look

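In 30 of 127 values looked at in the 4 vehicle virgin rats, the highest rat lay apart from the other 3 by a gap exceeding Dixon's 95% critical share of the group's range. For normally distributed values, chance sets a highest or a lowest rat this far apart in about 1 in 20 groups. Both ends were looked at, no lowest rat stood apart, and whether these values are normally distributed was not tested. The rat was N1N in 27 of the 30, N2N in 2 and N1R in 1. Values of 1 library are not independent, and some genes were named because all vehicle rats lay above all treated rats. The 30 of 127 can therefore not be set against 1 in 20. The part of this rat's non-leukocyte RNA in the differences was not tested.

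Among genes lower with TGFBRi, N1N had 272 normalized counts of MAB21L1, 147 of PRKAA2, 893 of MRGPRG, 690 of C1QTNF9, 432 of RGS4 and 285 of WNT10A. Among epithelial, muscle and nerve markers it had 67404 of KRT8, 22862 of KRT19, 11970 of KRT17, 8246 of TAGLN, 1122 of ACTA2, 944 of DES and 636 of S100B. Its values were 653 for the endothelial CLDN5, 13196 for FABP4, 12972 for CCL21 and 18419 for CLU. In the TGFβ pathway it had 4897 of LRRC32, 1714 of LTBP1, 4098 of LTBP4, 2550 of TGFBR2, 2090 of NEDD4L and 16871 of TIMP1. Its summed marker levels were 1919 CPM for basal epithelium, 21601 CPM for luminal epithelium, 330 CPM for smooth muscle and pericytes and 1301 CPM for plasma cells. The plasma cell list was more abundant in both epithelial sorts than in CD45+ cells.

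Rat N2N stood apart for CAMP, at 135 normalized counts, and for CD52, at 45.8. Rat N1R of the vehicle group stood apart for the casein gene CSN2, at 19599.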

How the results depend on the processing

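Of the processing choices, the test changed the number of calls most. Against 3 called genes, edgeR called 0, DESeq2 67, a pseudocount of 5 called 0 and a fit of only the 7 virgin samples 0, and leaving out 1 rat gave 0 to 33. The 33 came without the TGFBRi-treated rat N2R, and 5 without the TGFBRi-treated rat N1N. The count was 0 without the TGFBRi-treated rat N1R, without 3 of the 4 vehicle virgin rats, and without any 1 of 5 of the 6 parous rats, which enter through the shared variance. With the replicate block on the shared rat codes 0 genes were called, as without it in the same 6 samples (349 and 251 at an unadjusted p below 0.05). Fits added after the data were seen, without N1R, called 121 genes by DESeq2 and 0 by edgeR, and 0 by limma without N1R and the vehicle rat N1N. For the virgin and parous difference, DESeq2 called 6 genes, and 34 without N1R. The cause of these changes was not tested.

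Log2 fold changes turned sign for 8 genes. With edgeR and DESeq2 that of TGFB1 was 0.34 by both and that of TGFBR1 0.61 and 0.60. Leaving out 1 rat gave −1.59 to 1.31 for TGFB1, −2.15 to 1.25 for TGFBR1, −4.60 to 0.28 for TGFBR2 and −2.27 to 0.36 for TGFBR3. Without N1R, DESeq2 and edgeR gave 0.90 and 0.91 for TGFB1, 1.17 and 1.19 for TGFBR1, 0.24 and 0.28 for TGFBR2, 0.12 and 0.15 for TGFBR3 and 0.50 and 0.52 for COL1A1. Without both N1R and the vehicle rat N1N, limma gave 0.87, 1.21, 0.45 and 0.79 for TGFB1, TGFBR1, TGFBR2 and TGFBR3, and 0.57, 0.15 and 0.22 for LRRC32, NEDD4L and SMAD1.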
